A study of Mus musculus with 2 samples.

Results

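Contigs antisense to annotated genes are stretches of continuous RNA signal that lie across a gene on the opposite strand and touch no gene on their own strand. They were chosen by length, irreproducibility and position from the deposited mm9 contig table, as nuclear contigs of at least 200 nt with an irreproducibility value of at most 0.1, overlapping by at least 1 base the span of a gene of the Ensembl 65 table on the other strand. The rule kept 25036 contigs of the 862041 in the table, which is 5.45% of the 459565 nuclear contigs past both limits. The gene overlapped on the opposite strand is called the host below, and contig positions are on mm9.

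The study sequenced polyadenylated RNA longer than 200 nt, read by strand in pairs, from cortex (labelled cortical plate) of C57BL/6J mice aged 8 weeks. Littermates of both sexes were pooled and spike-in RNAs were added. There are 2 libraries, biological replicates 1 and 2 of the same untreated group, and no other condition. Each contig has 1 level for both libraries together, so contigs carry no replicate error, and the spread between libraries is given where the files hold paired columns or separate tables.

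Antisense transcripts are RNAs made from the strand opposite a gene. They include long noncoding RNAs that silence imprinted neighbours in cis, such as Kcnq1ot1 over Kcnq1 and the Snhg14 transcript over Ube3a in neurons, RNAs that start back to back with a gene at a shared promoter, and the unprocessed tails of neighbouring genes. Most are far less abundant than messenger RNAs.

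The libraries held 91875460 (replicate 1) and 92939474 (replicate 2) expected counts. All 12 marker genes of cortical cell types were detected, from 13.1 and 13.4 TPM (replicates 1 and 2) for the deep-layer factor Bcl11b to 1815 and 2220 TPM for the myelin gene Mbp, with the excitatory neuron gene Slc17a7 at 572 and 479 TPM. None of the 7 markers of other tissues was at 0 in either library. The striatal genes Drd2 and Adora2a stood at 0.8 and 1.44 TPM in replicate 1 and 12.5 and 14.0 TPM in replicate 2, and the Purkinje cell gene Pcp2 at 3.23 and 0.09 TPM (replicates 1 and 2). The muscle gene Acta1 was at 18.4 and 12.3 TPM, the choroid plexus gene Ttr at 14.8 and 19.4, Prox1 at 4.51 and 2.78 and Dsp at 1.13 and 0.03. The part of such tissue in the contigs was not tested, since contigs pool the libraries.

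The windows below show gene starts. Kcnq1ot1 and Snhg14 are antisense RNAs whose loci held the longest contig and others among the 10 longest. Shc2, Il17d and Cpsf2 are hosts with strong antisense contigs across their start. The Snhg14 window is at the RefSeq start, which lies upstream of the Snhg14 gene as GENCODE M21 draws it (chr7:59307924-59975759, minus strand). Whether any contig reaches that RefSeq start was not tested. Each runs from 250 bases before to 50 after a gene's start, 5′ to 3′ on the gene's strand, from RefSeq on GRCm38.p6, and capitals mark each CG dinucleotide.
Kcnq1ot1 (chr7:143296498-143296797, minus strand, 9 CG): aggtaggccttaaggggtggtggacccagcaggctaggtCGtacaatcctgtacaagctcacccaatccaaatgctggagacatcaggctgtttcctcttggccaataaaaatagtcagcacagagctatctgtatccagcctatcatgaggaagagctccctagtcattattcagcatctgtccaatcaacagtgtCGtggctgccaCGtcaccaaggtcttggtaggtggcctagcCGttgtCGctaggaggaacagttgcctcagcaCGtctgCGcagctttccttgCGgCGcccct
Snhg14 (chr7:60450128-60450427, minus strand, 2 CG): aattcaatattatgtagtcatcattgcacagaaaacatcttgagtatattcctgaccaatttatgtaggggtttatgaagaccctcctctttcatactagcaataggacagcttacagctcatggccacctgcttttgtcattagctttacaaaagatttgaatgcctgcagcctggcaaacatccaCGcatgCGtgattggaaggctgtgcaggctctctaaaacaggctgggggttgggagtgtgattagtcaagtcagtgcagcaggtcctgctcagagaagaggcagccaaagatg
Shc2 (chr10:79637869-79638168, minus strand, 24 CG): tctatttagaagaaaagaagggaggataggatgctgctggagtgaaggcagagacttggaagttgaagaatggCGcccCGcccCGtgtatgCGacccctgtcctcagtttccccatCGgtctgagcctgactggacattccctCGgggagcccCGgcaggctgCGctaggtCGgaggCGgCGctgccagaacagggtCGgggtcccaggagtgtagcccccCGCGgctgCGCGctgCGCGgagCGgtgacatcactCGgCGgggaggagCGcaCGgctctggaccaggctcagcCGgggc
Il17d (chr14:57524579-57524878, plus strand, 19 CG): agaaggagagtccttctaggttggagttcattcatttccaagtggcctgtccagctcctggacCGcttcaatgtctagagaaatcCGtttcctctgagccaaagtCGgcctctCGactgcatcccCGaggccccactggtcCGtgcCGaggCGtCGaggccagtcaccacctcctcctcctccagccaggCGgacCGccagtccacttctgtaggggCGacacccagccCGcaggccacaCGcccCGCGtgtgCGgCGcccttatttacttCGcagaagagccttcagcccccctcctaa
Cpsf2 (chr12:101975724-101976023, plus strand, 26 CG): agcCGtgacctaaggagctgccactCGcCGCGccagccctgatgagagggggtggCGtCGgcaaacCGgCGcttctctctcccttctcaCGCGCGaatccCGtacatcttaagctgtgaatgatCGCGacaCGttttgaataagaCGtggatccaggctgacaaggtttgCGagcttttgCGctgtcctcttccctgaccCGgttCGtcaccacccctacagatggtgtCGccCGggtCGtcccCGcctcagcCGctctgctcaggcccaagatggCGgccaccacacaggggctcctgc
The motifs searched were CG, which reads the same on both strands, and TATAAA on either strand. None of these 5 windows held TATAAA, which 13.6% of all 32851 windows held, 7.16% of those of hosts with a contig at the start and 7.56% of those of protein-coding genes of at least 0.1 RPKM without any antisense contig. The Shc2, Il17d and Cpsf2 windows were rich in CG and the Snhg14 window was poor in it. Windows of hosts with an antisense contig at their start had a median of 21 CG (2556 windows), against 16 for hosts with internal contigs and none at the start (3959 windows), 20 for protein-coding genes of at least 0.1 RPKM without any antisense contig (7764 windows) and 7 for all windows. Hosts with a contig at the start were thus near genes without an antisense contig in this count, and no test was made.

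The contigs were short and weak. Their median length was 541 nt and their median level 0.075 in the deposited signal unit, which is proportional to the summed signal per base. For comparison, contigs on the strand of a gene had medians of 809 nt and 0.102, and contigs outside genes 577 nt and 0.072. The range ran from 0.021 to 3630, but 89.4% of the antisense contigs lay below 0.2, and 275 (1.10%) reached 1, against 8.24% of contigs on the strand of a gene. Only 99 contigs were 10 kb or longer. Together they covered 23.6 Mb. The strands were used about equally, with 49.0% on the plus strand. Contigs at the irreproducibility limit of 0.1 (1887) had a median level of 0.049 and those just outside it, at 0.11 (2434), a median of 0.052. At the length limit, the 38 contigs of 200 nt had a median of 0.104 and the 26 of 199 nt a median of 0.111.

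**Figure D1:**
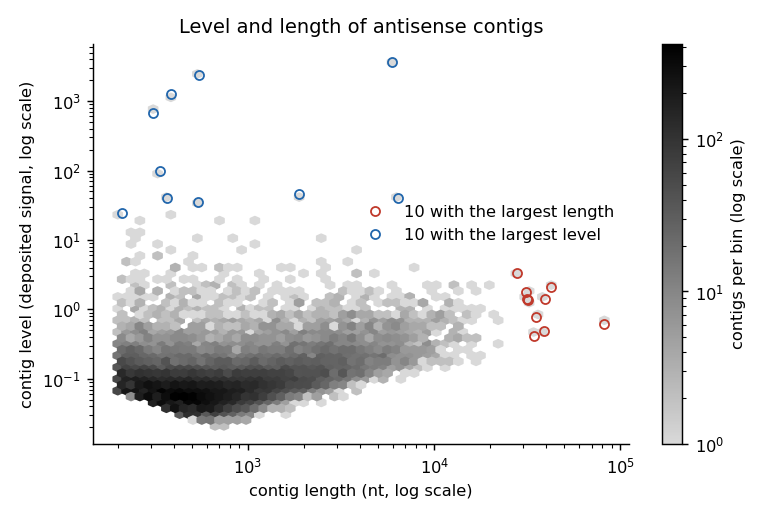
Level against length of the 25036 antisense contigs, both on log scales, with grey shading for contigs per bin; red and blue rings mark the 10 longest and the 10 with the highest level. The longest contigs had modest levels, 0.416 to 3.33, and most of the strongest were under 1000 nt.

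The hosts numbered 7639 when every overlapped gene is counted, or 7430 when each contig is given to the gene it overlaps most, and 3561 of these (47.9%) had a single contig. By type, 22425 contigs (89.6%) lay in protein-coding hosts, 486 in hosts annotated as antisense RNAs and 419 in long intergenic noncoding RNAs. The hosts with most contigs had long spans, and contigs per kb were not compared. Gm20388, a gene model spanning 4435 kb, held 198, the phosphodiesterase gene Pde4d 121, and the growth factor receptor gene Fgfr2 114, over a span of 3009 kb. By bases covered, Gm20388 led with 217.8 kb, followed by the imprinted potassium channel gene Kcnq1 with 117.7 kb in 23 contigs and the calcium-activated potassium channel gene Kcnn2 with 113.9 kb in 107 contigs.

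The share of genes holding an antisense contig rose with gene span. Of 15400 genes with a mean of at least 0.1 RPKM, 5619 (36.5%) held one. The share was 3.51% (95% Wilson interval 2.57 to 4.78) for genes under 1 kb, 19.8% for 1 to 10 kb, 34.8% for 10 to 30 kb, 47.3% for 30 to 100 kb and 69.2% (67.2 to 71.2) for 100 kb or more. Among genes of 100 kb or more it also rose with the gene's own level, from 59.3% (55.8 to 62.8) at 0.1 to 1 RPKM to 82.4% (74.5 to 88.2) at 10 RPKM or more. Among genes of 1 to 10 kb it ran the other way, from 21.2% (19.2 to 23.3) to 14.5% (11.6 to 17.9).

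**Figure D2:**
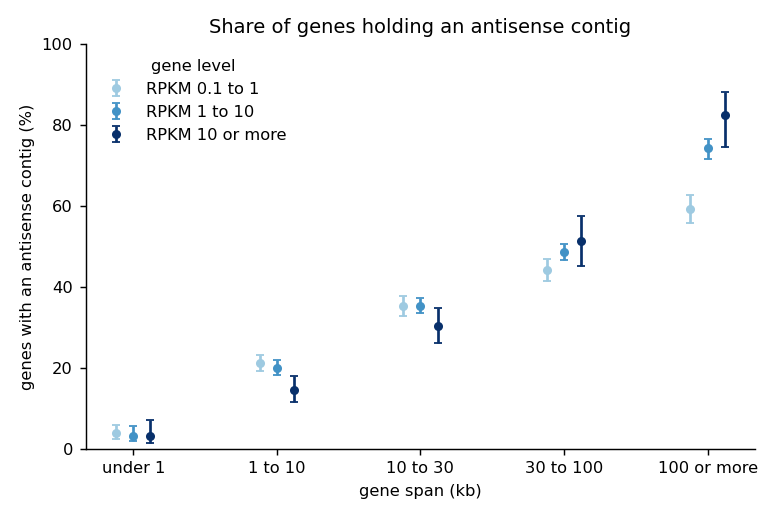
Percent of genes that held an antisense contig, by gene span and by gene level; bars are 95% Wilson intervals over genes. The share climbs from 3.51% under 1 kb to 69.2% at 100 kb or more.

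Most contigs lay inside their host, away from its ends. A contig within 1 kb of the host's start or end was placed there. By this rule 20190 (80.6%) were internal, 2932 (11.7%, 95% Wilson interval 11.3 to 12.1) lay at the start, 1452 (5.80%) at the end and 462 (1.85%) at both. Contigs at the start were longer and stronger, with medians of 909 nt and 0.109, than internal contigs, at 505 nt and 0.072. At the start a median of 55.4% of the contig lay within the host, the rest reaching out of the gene. Where at least 50% of the contig had to overlap the host, the start held 6.76%.

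The start stood out when position was followed base by base. In genes of at least 20 kb and 0.1 RPKM, the first 500 bases carried an antisense contig in 1341 of 6755 genes (19.9%) and the next 500 in 12.1%, with 2.34% at 4.5 to 5 kb and 2.62% at 9.5 to 10 kb. All 3 tiers of host level showed the peak, at 16.3%, 21.9% and 19.5% from the weakest to the strongest. At the end of the gene there was no such peak: the last 500 bases carried one in 4.25% of genes. Further in, the share was 5.71% at 4.5 to 5 kb and 4.81% at 9.5 to 10 kb from the end. In the last 500 bases the strongest hosts were lowest, with 1.11% against 2.78% and 7.26% in the middle and weakest tiers. Genes with any annotated gene on the contig's strand in the interval were left out, since the rule allows no contig there.

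**Figure D3:**
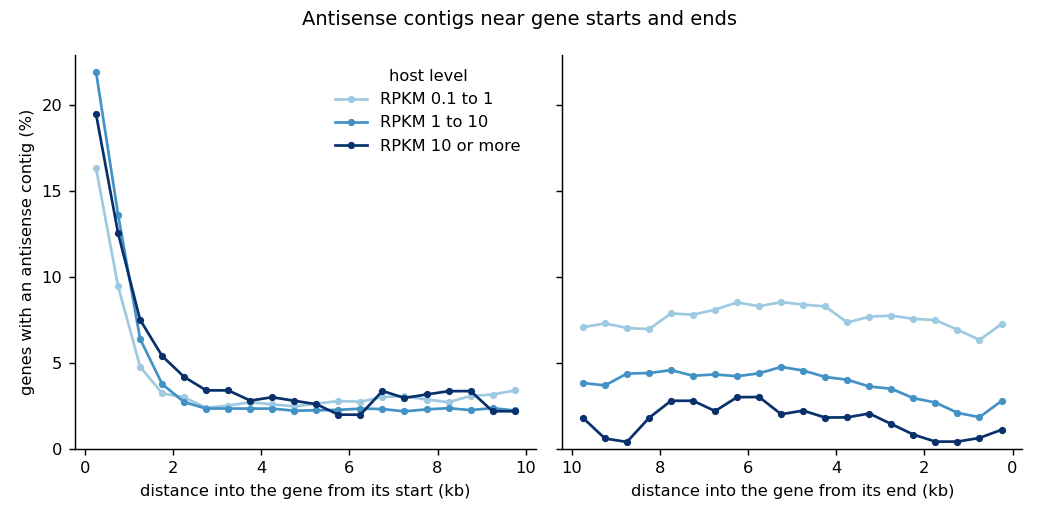
Percent of genes with an antisense contig in each 500-base interval from the start (left) and the end (right), for genes of at least 20 kb in 3 tiers of host RPKM. From the start, the first interval reaches 16.3% to 21.9% and the share at 4.5 to 5 kb is 2.22% to 2.79%. From the end, these intervals hold 1.11% to 7.26% and 2.22% to 8.39%.

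The strongest contigs at a start were those at Shc2, Il17d and Nefm. At Shc2, which encodes a signalling adaptor, a contig of 2394 nt (chr10:79099991-79102384, plus strand, mm9) had a level of 10.5, and the opposite strand over its bases had 0.788. Il17d, an interleukin gene, had one of 3500 nt at 4.96 (chr14:58141038-58144537), with 0.320 opposite. At Nefm, the neurofilament medium chain gene, a contig of 8119 nt at 4.28 (chr14:68741629-68749747) crossed bases where the opposite strand had 3.01, with 48 and 42 junction reads on its own strand. Shc2 and Nefm were themselves expressed, at 4.57 and 3.80 RPKM and at 8.13 and 8.12 RPKM.

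At gene ends the strongest were short. The contig at Ptms, which encodes parathymosin, was 211 nt at 24.3, over bases with 51.6 on the opposite strand. Those at Anp32b and Diras1 were 250 and 533 nt at 4.46 and 4.02, over opposite levels of 1.66 and 18.8. None of these 3 had an own-strand junction with reads in both columns of the junction table.

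Contigs lying just downstream of a same-strand gene were common: 5975 of the 25036 (23.9%, 23.3 to 24.4) began within 10 kb of such a gene's end. Contigs outside all genes had nearly the same share, 24.0% (23.7 to 24.2). The share was 54.8% for contigs at a host's end and 15.1% for those at a start. A median level of 0.074 near a same-strand gene end did not stand apart from 0.076 elsewhere. Fewer, 12.6%, ended within 10 kb of the start of a same-strand gene.

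Host exons were crossed by 7803 contigs (31.2%), and 688 (2.75%) lay wholly in them. Median level was 0.092 for contigs crossing an exon and 0.071 for the others. The share crossing an exon was 84.1% at starts, 89.4% at ends and 17.8% inside. A contig that crosses a host's start or end takes in a base of its first or last exon. Part of this difference therefore follows from position alone. When at least 50% of the contig had to be exonic, 7.19% qualified.

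The antisense level changed little with the signal facing it. For 5932 contigs (23.7%) no contig on the opposite strand covered any of the same bases. Where the opposite level was at most 0.05, the antisense median was 0.073 (3679 contigs). At 0.5 to 5 it was 0.087 (5307 contigs), at 5 to 20 it was 0.085 (429 contigs), and above 20 it was 0.123 (39 contigs). As a share of the facing signal the median therefore fell from 404% to 8.79%, 1.12% and 0.310%. Across the 19104 contigs with both levels, which share libraries and a detection limit, Spearman's rho was 0.127 and Pearson's r of the log values 0.113. With host RPKM, over 23860 contigs, these were 0.115 and 0.122. Whether part of the weak signal facing strong genes is host RNA read on the wrong strand was not tested.

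**Figure D4:**
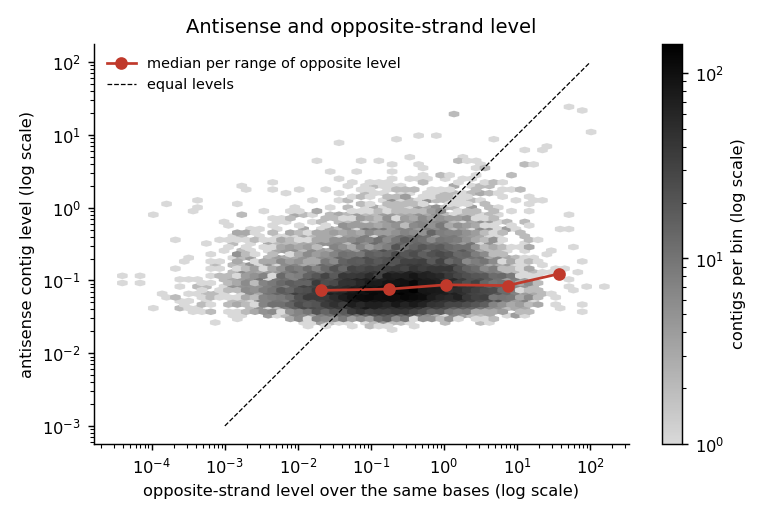
Level of each antisense contig against the opposite-strand level over the same bases (log scales), for the 19104 contigs with both; red points are medians per range and the dashed line marks equal levels. The medians stay between 0.073 and 0.123.

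Some antisense contigs held splice junctions. Junction reads on the contig's own strand, with at least 1 read in each of the 2 deposited columns (which replicate each column holds is not stated), were anchored in 2126 contigs (8.49%, 8.15 to 8.84). The share was 25.3% for contigs on the strand of a gene and 6.65% for contigs outside genes. Contigs with such reads were stronger and longer, with medians of 0.164 and 987.5 nt against 0.0725 and 527 nt. They made up 19.1% at starts and 6.49% inside hosts. In 416 of them (19.6%) a junction led to an annotated gene on the same strand, and in 1175 (55.3%) to a base inside an antisense contig. The evidence per junction was thin: the median over 3563 junctions was 2 reads in the first column and 3 in the second, and with at least 5 reads in each column 2.15% of contigs remained. Junctions on the host's strand, with reads in both columns, were anchored in 4441 contigs (17.7%). Junctions of both strands were found in 800 contigs.

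The contig at Cpsf2, which encodes a subunit of the cleavage and polyadenylation complex, held the junction with most reads among those marked with the flag C of the junction table, whose meaning is not stated. Its main junction, with an intron of 6022 nt, carried 1486 and 1495 reads, in a contig of 888 nt at level 3.96 across the Cpsf2 start, where the opposite strand was at 0. In Sfi1, a centrosome gene, a contig of 1057 nt at level 20.1 was joined over 31853 nt to Pisd-ps1 by 1292 and 1183 reads. In Gapdhs, the sperm form of a glycolytic enzyme, listed at 0 RPKM in both columns, 2 contigs of 2443 and 6412 nt at 3.59 and 1.92 shared a junction of 227 and 210 reads. The paired columns were close in each of these.

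The paired columns were less alike for junctions without that flag. The 2714 flagged junctions anchored in these contigs summed to 24014 and 23495 reads, a ratio of 0.978. The 849 without the flag summed to 11638 and 24319, a ratio of 2.09. The contig of the highest level carried many of them, its main junction having 3692 and 8024 reads, and without it the ratio was 1.83. The junctions in Mest, at 861 and 2255 reads over 208284 nt, and in Tax1bp1, at 831 and 2014 reads over 28394 nt, were of this kind. Without these 3 contigs the ratio was 1.42, and the median unflagged junction had 2 reads in each column, so the difference in sums came largely from 3 contigs, chosen after their values were seen. Over the whole junction table the ratios were 0.981 with the flag and 1.07 without. With flagged junctions alone, 7.36% of contigs had own-strand junction reads.

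The highest levels came from few places. The contig at 3630 (chr17:39979936-39985837, plus strand, 5902 nt) faced an unnamed host of 725 nt, ENSMUSG00000045999, listed at 0.00929 and 0.00878 RPKM. Its summed signal is the largest in the file and may be capped. The identifier of this host is not in GENCODE M21, and which RNA gave the contig was not identified. Next came contigs of 545 nt in Jarid2, a Polycomb cofactor gene, at 2390 (chr13:44964911-44965455), of 387 nt in Arhgap21 at 1250 and of 310 nt in Sspn at 680. None of these 4 faced any opposite-strand contig over its bases. Their own-strand junction reads in the paired columns were, in this order, 7132 and 16117, 78 and 77, 184 and 383, and 37 and 61. Assembled models on the strand of the Jarid2, Arhgap21 and Sspn contigs had 0.663 and 2.06, 37.0 and 108, and 303 and 743 RPKM. The paired columns of these models thus differed, and the cause was not tested. Of the 19 contigs at 10 or more, 14 were under 1000 nt and 7 had no own-strand junction read in both columns. Copg2, an imprinted gene of a vesicle coat subunit, held a longer one, of 6378 nt at 39.9 (chr6:30752812-30759189), with 73 and 66 junction reads.

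Several of the longest contigs lay in loci known for a long antisense RNA. In Kcnq1, a contig of 81.9 kb at level 0.617 (chr7:150400590-150482494, minus strand) was the longest of the 25036 and faced an opposite level of 0.000906, while Kcnq1 was at 0.0265 and 0.0313 RPKM. A second of 16.0 kb at 0.878 lay beside it, and the other 21 in Kcnq1 ranged from 0.043 to 0.169. Ube3a, the ubiquitin ligase gene lost in Angelman syndrome, had 5 contigs from 1.09 to 2.38, which is above the level of 1 that few antisense contigs reach. They included 39.3 kb at 1.43, 31.1 kb at 1.76 and 8.87 kb at 2.38, the last with 514 and 376 junction reads, and the opposite-strand level over these 3 contigs was 0.326, 0.228 and 0.553. Zfhx2, a homeobox factor gene, had 31.6 kb at 1.40 with 247 and 255 junction reads, facing 1.06. Others of the 10 longest crossed the small RNA gene Gm25578 (42.6 kb at 2.13), Rbm4b (31.7 kb at 1.35), Gm20388 (27.7 kb at 3.33) and the end of Ccdc7b (39.0 kb at 0.484).

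Of 36 hosts listed as members of known sense-antisense pairs, 15 held a contig. Among the 27 of at least 0.1 RPKM, 12 did (44.4%), against 36.5% of all genes of that level. The list's median span was 30.5 kb. Over all genes of that level the share was 34.8% at 10 to 30 kb and 47.3% at 30 to 100 kb. The rule keeps no contig that touches an annotated gene on its own strand. An antisense partner already in the gene table is thus left out, and 15 is not a count of known antisense RNAs detected. Besides Kcnq1, Ube3a and Zfhx2, given above, Vax2 had 16 contigs from 0.048 to 0.907. Vax2 is a retinal homeobox gene listed at 0 RPKM in both columns. Gnas, the imprinted G protein subunit gene, had 5 from 0.047 to 0.683, of which 3 carried junction reads, against a host at 127 and 112 RPKM. Pax6, a homeobox factor, had 5 from 0.037 to 0.211, and Bdnf, the neurotrophin gene, 3 from 0.067 to 0.136, all with own-strand junction reads, at most 3 and 5. Mapt, which encodes tau, had 2 short contigs at 0.323 and 0.084. Zeb2, Zeb1, Trappc9, Fgf2, Bace1 and Wt1 held 1 to 7 contigs each, all at or below 0.155. Nespas, Pax6os1, Zeb2os, Fgf2os and Wt1os are annotated on the contig strand near the contigs in Gnas, Pax6, Zeb2, Fgf2 and Wt1. The contig levels given for these hosts are therefore not levels over those antisense genes.

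Neuronal receptor and channel genes held antisense contigs in larger shares than the 36.5% of all genes of at least 0.1 RPKM, and their spans were long. Of 24 glutamate receptor subunit genes, 20 held one (median span 349 kb), as did 11 of 14 GABA receptor subunit genes (119 kb), 25 of 40 voltage-gated channel genes (111 kb), 19 of 31 synaptic adhesion and scaffold genes (96.7 kb), 19 of 38 synaptic vesicle genes (64.2 kb) and 19 of 29 cytoskeleton genes (41.2 kb). Median contig levels in these 6 lists ran from 0.087 to 0.115. Homeobox genes held one in 24 of 40 and clock genes in 9 of 19. The lists of short genes were below the 36.5% of all genes: 3 of 19 immediate early genes (3.78 kb), 6 of 31 nuclear respiratory chain genes (10.8 kb), 2 of 13 myelin genes (15.7 kb) and 4 of 15 astrocyte genes (13.1 kb). Over all genes of that level the share was 19.8% at 1 to 10 kb and 34.8% at 10 to 30 kb. Lists were not tested.

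The strongest contigs of these lists, chosen by level, lay far above the list medians. In the NMDA receptor gene Grin2d a contig of 4682 nt at the host's end had a level of 1.84, with 78 and 83 own-strand junction reads and 1.19 on the opposite strand. The GABA receptor gene Gabra2 had one of 513 nt at 2.71, with 7.43 opposite and no junction with reads in both columns. The pacemaker channel gene Hcn2 had one of 499 nt at its start at 1.88, with 40 and 48 junction reads. Dlg2, a postsynaptic scaffold, had 939 nt at 2.41, and Camk2b, a calcium-dependent kinase subunit, 4729 nt at 1.82. The neurofilament heavy chain gene Nefh had 8705 nt at 1.22 across its start, with 145 and 106 junction reads, and Satb1, a chromatin organizer, 15099 nt at 0.727, facing 0.0069.

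The newer mm10 gene tables allow a measure by replicate. Of the 7430 hosts, 7130 were found by identifier in GENCODE M21, and 853 genes that are absent from the Ensembl 65 table overlapped 660 of them on the opposite strand. Whether a contig and such a gene are the same RNA was not tested. Of the 853, 303 are annotated as antisense RNAs, 93 as long intergenic RNAs and 40 as protein-coding. The others include 92 processed pseudogenes and genes of small or ribosomal RNAs. Among these are 58 microRNA, 54 ribosomal, 28 small nuclear and 7 small nucleolar RNA genes. Levels over all 853 were low, and 406 had 0 counts in both libraries. In both libraries 104 (12.2%) reached 1 TPM, against 32.6% of all 43346 gene rows, and 11 reached 10 TPM. The libraries were made from longer polyadenylated RNA, and levels by gene type were not compared. These shares are therefore not those of long antisense RNAs alone. In 56 pairs the antisense gene's mean TPM was above the host's.

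The leading member was Snhg14, opposite Ube3a, at 229 and 206 TPM (mean 218 ± 16.6, SD, n = 2), with Ube3a at 7.88 and 6.40 TPM. Snhg14 as drawn (chr7:59307924-59975759) reaches far beyond Ube3a, which spans 82.8 kb. Its TPM is therefore not the antisense level over Ube3a alone. All TPM here are for whole genes, and counting by strand is not stated for them. Tmem147os, opposite Gapdhs, stood at 20.9 and 17.8 TPM. Zfhx2os stood at 4.96 and 4.52 TPM with Zfhx2 at 7.14 and 6.42 TPM, and Kcnq1ot1 at 1.06 and 1.07 TPM with Kcnq1 at 0.34 and 0.39 TPM. The rest of the 10 with the highest mean TPM were Rps23-ps1 (85.6 and 51.6), Tmem151b (51.4 and 42.3), A330023F24Rik (44.8 and 38.9), Snhg6 (41.4 and 41.5), Ccdc85b (37.2 and 33.4), Mir124-2hg (27.1 and 22.6), 9330151L19Rik (22.1 and 17.2) and 2310009A05Rik (13.9 and 13.6 TPM). Rps23-ps1 is a processed pseudogene, and how far its counts hold reads of its parent gene was not tested.

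**Figure D5:**
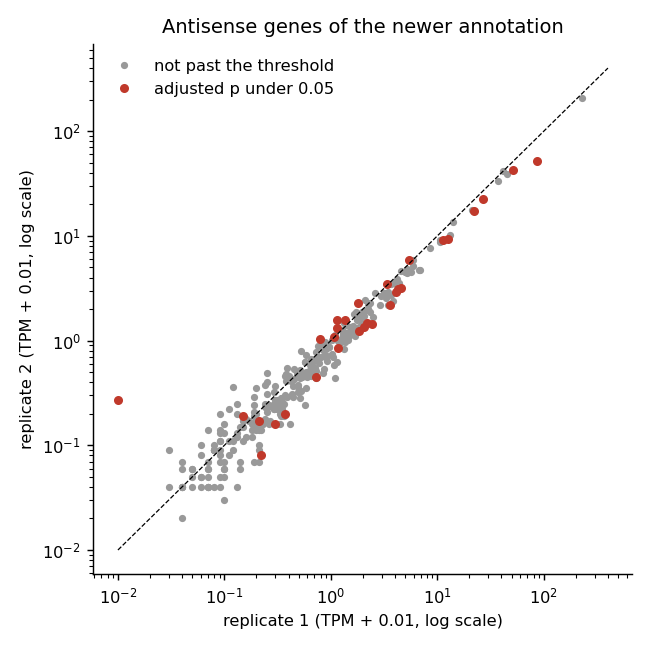
TPM in replicate 1 and replicate 2 (log scales, 0.01 added) of the 316 tested genes antisense to a host; red marks the 30 with an adjusted p under 0.05 in the exact binomial test, and the dashed line marks equal values.

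Between the libraries, 30 of the 316 antisense genes with at least 10 counts (9.49%) differed by the exact two-sided binomial test at an adjusted p under 0.05, against 28.7% of all 19829 genes tested. The median counts were 96 for the antisense genes and 1909 for all genes tested, so the 2 shares rest on unequal depth. Replicate 2 was higher in 11 and lower in 19, directions that 14.8% and 14.0% of all genes tested took. Among those whose higher library reached 100 counts, the largest differences were Ccer2, 1.54-fold (interval 1.17 to 2.04) higher in replicate 1, and Gm10421, 1.65-fold (1.25 to 2.20) higher in replicate 2, with adjusted p of 0.00741 and 0.00143 by that exact binomial test. Kcnq1ot1 was 1.12-fold (1.08 to 1.16) higher in replicate 2 with an adjusted p of 9.91e-10 by the exact binomial test, from 6057 and 6672 counts. For Snhg14 the ratio of replicate 2 to replicate 1 was within 0.972 to 1.02, and its adjusted p was 0.828 by the exact binomial test. The p-values compare these libraries, not conditions.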

How the data were processed

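Polyadenylated RNA of adult mouse cortex was measured in 2 libraries, replicates 1 and 2 of 1 group. Per the file headers, the authors gave each contig of the mm9 table a signal level, an irreproducibility score and a summed signal; RPKM in paired columns for Ensembl 65 genes and exons and for assembled models; and deposited counts of junction reads in columns R1 and R2. Per the file headers, the deposited mm10 gene tables (GENCODE M4) hold expected counts and TPM. The programs are not given in the sources used here. Contig level equals summed signal per base times a constant. Each mm9 gene is listed on 2 rows, which were collapsed.

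Members, hosts, positions (within 1 kb of a host start or end) and junctions were joined by coordinates on mm9 alone, with Python 3.11.15, pandas 2.3.3 and scipy 1.17.1. Symbols matched 87.4% of mm9 genes. For mm10, rounded expected counts of genes with at least 10 counts were compared by an exact two-sided binomial test with TMM sizes (edgeR 4.0.16, R 4.3.3), adjusted after Benjamini and Hochberg and called under 0.05. Each library got 0.5 counts before log2 ratios. DESeq2 1.42.0 gave an alternative. Wilson and Clopper-Pearson intervals (95%) cover counting error only. The labels give separate biological replicates but no source animals. The p-values set the difference between these libraries against counting error only and hold no term for spread between replicates. Counting by strand is not stated for the mm10 tables.

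Members and gene lists were chosen with earlier results of these data known. The contigs named were the 10 highest, the 10 longest, the 10 with most junction reads, the 3 highest of each position, the 3 hosts with most contigs or bases, and hosts of known pairs (of which a single host is not reported here); for other lists, up to 4 members by level. Alternatives changed the limits, distances, overlaps and scaling.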

Additional observations from a re-analysis of the deposited data

How the results depend on the processing

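Shares by position moved with every planned choice. With irreproducibility at most 0.01 the 14045 contigs left had 16.0% at the start, 7.41% at the end and 74.0% inside; with at least 500 nt the 13881 left had 15.8%, 7.68% and 73.9%; with at least 50% of the contig in a host, 6.76%, 4.58% and 87.8%; with 5 kb around the ends, 16.9%, 14.8% and 61.6%. Leaving out hosts with spans over 2 times their newer length, or hosts under 300 nt, was chosen after seeing the data. Neither moved the start, end or internal share out of its interval. Contigs on hosts under 300 nt all lie at both start and end, and the share of that class was not recomputed. The share near a same-strand gene end was 13.3% within 5 kb and 58.6% within 50 kb. Own-strand junction reads were found in 2.15% of contigs with at least 5 reads in each column, 12.8% at irreproducibility 0.01, 11.1% at 500 nt and 7.36% with flagged junctions only (added after seeing the data). Exon overlap of at least 50% gave 7.19%. The count of antisense genes past the threshold was 28 to 35 under the other scalings and count minimums, with 9 of 35 higher in replicate 2 under plain totals (25.7% against 36.7% in the main setting). The median TPM of the 853 genes was 0.01, and 0.0 to 0.0 without replicate 1 or 2; the median log2(TPM + 1) of 0.014 became -3.19 with 0.1 added and 1.59 for genes of at least 1 TPM. The cause of these changes was not tested. Host RPKM from either column alone left Spearman's rho at 0.112 and 0.110. No paired analysis was possible because there is only 1 group. Contigs pool both libraries, so no contig result could be repeated without a library.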
